A study of Mus musculus with 12 samples.

Results

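Interferon response genes are the genes that cells switch on when an interferon, a secreted alarm protein of antiviral defence, binds its receptor. A list of 44 mouse genes of this kind was followed here through brain tumours and normal brain, each gene matched by its symbol to an Ensembl gene of the deposited count table, and all 44 were found among its 49671 genes. Of these members, 41 had enough reads to be tested, among 17812 genes tested in all; Isg15, Oas1a and Oasl1 did not. The study sequenced RNA of formalin-fixed, paraffin-embedded mouse brain in 12 libraries, 3 in each of 4 groups. The IDH1_R132H tumours carry the mutant and the IDH1WT tumours the unmutated form of isocitrate dehydrogenase 1, the PDGFA tumours are labelled with platelet-derived growth factor A, and the last group is normal brain. All tumours arose in N::TVA mice with floxed (lox/lox) alleles that include Cdkn2a and Atrx. The normal brains have the same floxed alleles but are labelled TVA neg, TVA being the receptor through which an avian leukosis virus enters a cell. Age, sex, the virus and Cre given, the day of collection, and whether the IDH1 tumours also received PDGFA are not stated in the labels. Nor do the labels say that the libraries of a group came from separate animals, so p-values measure the spread between these libraries.

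Interferons of type I and type III are made when sensors find viral or misplaced nucleic acid, and interferon gamma is made mainly by T and NK cells. Type I and type III receptors act through a complex that contains STAT2 and IRF9 and binds the interferon-stimulated response element (ISRE), while interferon gamma acts through a STAT dimer that binds the gamma-activated sequence (GAS). The induced proteins include new sensors and transcription factors, effectors that block viral entry, translation and budding, GTPases that attack the vacuoles of intracellular parasites, and inhibitors that end the response. In brain, microglia, astrocytes, endothelial cells and neurons can all mount it, and gliomas can add infiltrating macrophages and lymphocytes.

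Interferon signals act on short elements in the DNA upstream of such genes. RefSeq promoter windows of GRCm38.p6, from 250 bases before to 50 bases after an annotated start, were at hand for 33 of the 44 members. The ISRE core was searched on both strands as GAAA, any 2 bases and GAAA again, which reads TTTC, any 2 bases and TTTC where it lies on the opposite strand. It was present in 17 of the 33 members (51.5%), against 3.99% of the 27025 genes with such windows. A shorter form of this core, GAAANNGAA (N is any base), searched on both strands, which every ISRE core also contains, was present in 63.6% of the members and 9.76% of all genes. GAS was searched as TTCNNNGAA, which reads the same on both strands, and was present in 10 members (30.3%) and 9.55% of all genes. Of the members, 6 held both the ISRE core and GAS, and in 2 of them, Bst2 and Ifitm3, the matches overlapped. These are matches of letters, not measured binding. The 250 bases before the start are printed for 4 GTPase genes that rose in the tumours (the test is given further on) and for Ifit1, a gene with 2 such elements that did not pass the test, each 5′ to 3′ on the strand of the gene with the ISRE cores in capitals.
Irgm1, chr11:48871421-48871670, minus strand: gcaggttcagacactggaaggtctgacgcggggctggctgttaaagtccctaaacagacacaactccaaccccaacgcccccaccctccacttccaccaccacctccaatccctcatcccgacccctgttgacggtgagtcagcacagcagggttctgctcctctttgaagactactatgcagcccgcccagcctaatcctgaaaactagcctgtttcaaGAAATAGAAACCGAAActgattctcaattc
Igtp, chr11:58199306-58199555, plus strand: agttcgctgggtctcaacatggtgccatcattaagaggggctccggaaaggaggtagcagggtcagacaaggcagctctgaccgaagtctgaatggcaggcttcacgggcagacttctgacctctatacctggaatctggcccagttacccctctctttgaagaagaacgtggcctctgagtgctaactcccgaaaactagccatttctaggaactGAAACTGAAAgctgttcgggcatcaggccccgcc
Gbp2, chr3:142620413-142620662, plus strand: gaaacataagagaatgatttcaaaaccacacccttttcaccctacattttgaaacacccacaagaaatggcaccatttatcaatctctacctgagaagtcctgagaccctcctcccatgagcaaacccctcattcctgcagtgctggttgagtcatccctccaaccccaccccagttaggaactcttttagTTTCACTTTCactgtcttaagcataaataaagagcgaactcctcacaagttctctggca
Gbp3, chr3:142559794-142560043, plus strand: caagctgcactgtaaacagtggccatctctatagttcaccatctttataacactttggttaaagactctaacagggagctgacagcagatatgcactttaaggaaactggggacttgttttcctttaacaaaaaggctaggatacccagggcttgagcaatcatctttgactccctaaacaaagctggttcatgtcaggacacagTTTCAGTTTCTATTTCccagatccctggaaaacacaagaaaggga
Ifit1, chr19:34640639-34640888, plus strand: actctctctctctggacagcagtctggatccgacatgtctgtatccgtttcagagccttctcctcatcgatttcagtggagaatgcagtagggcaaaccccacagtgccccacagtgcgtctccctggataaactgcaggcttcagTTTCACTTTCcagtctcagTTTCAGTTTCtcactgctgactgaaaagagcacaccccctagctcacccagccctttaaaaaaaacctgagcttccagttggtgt
Positions are counted from the RefSeq start. In Irgm1, 2 cores overlap and start 30 and 24 bases before the start site. Igtp has 1 core, 34 bases before the start, and a GAS match 45 bases before it. In Gbp2 the core lies on the opposite strand with its first base 59 bases before the start, and in Gbp3 a pair of overlapping cores on that strand begins 45 bases before it. The Ifit1 cores lie 104 and 85 bases before the start, with 9 bases between them.

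Depth and sample quality set how small a change could be seen. Libraries held 6507923 to 14277395 counted reads, of which the 44 members took 2115 to 5994. Levels are given as CPM, reads of a gene for every 1000000 reads of its library, after scaling between libraries by TMM, a method that sets most genes to no change. Gene models that collect ribosomal RNA took 51.5% of the reads of IDH1_R132H tumour 3 and 3.02% to 19.8% elsewhere. PDGFA tumour 1 stands near the normal brains in the oligodendrocyte lineage: its summed level of 7 oligodendrocyte precursor markers was 413 CPM, against 433 to 447 CPM in normal brains and 1180 to 5690 CPM in the other tumours. In astrocyte markers PDGFA tumour 1 was unlike the normal brains. Its summed level of 8 such markers was 998 CPM, against 4767 to 4888 CPM in normal brains and 3432 to 6233 CPM in the other tumours. The labels call it a tumour, and it is treated as one unless stated. Normal brains 1 and 2 were more alike than any other pair within a group, with a chi-square statistic per gene of 2.43, against 27.0 and 26.1 for their pairs with normal brain 3. Neuronal markers were present in all 12 libraries, at 3201 to 7111 CPM in tumours, highest in PDGFA tumour 1, and 6126 to 6458 CPM in normal brains. In such bulk tissue, fewer cells of a type and less RNA per cell cannot be told apart.

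**Figure D1:**
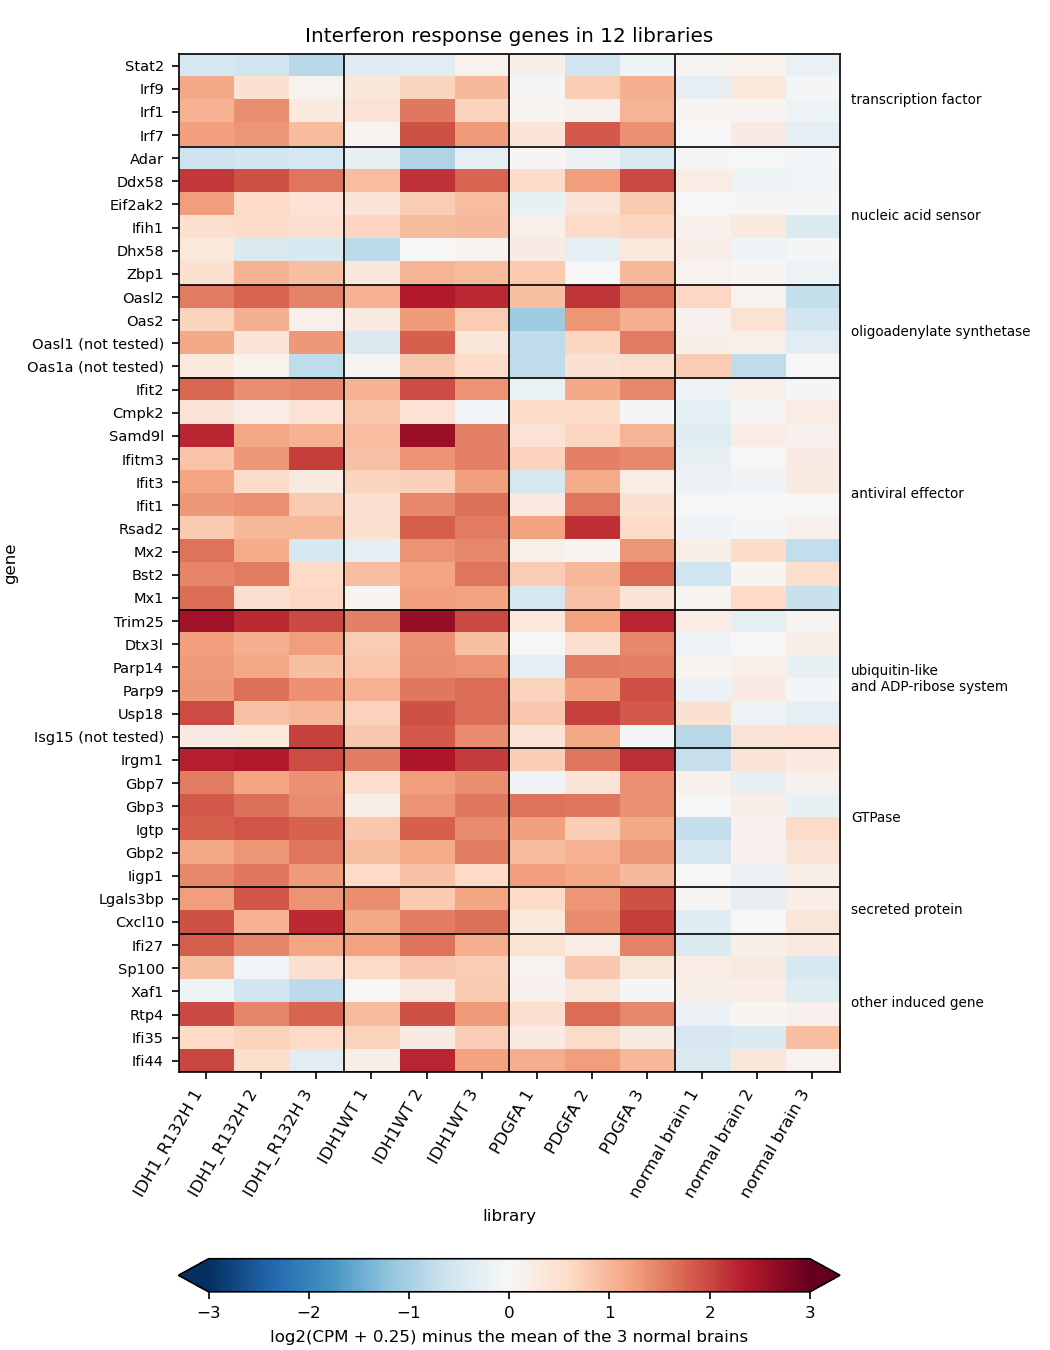
Level of each of the 44 interferon response genes (vertical axis, ordered by role) in each of the 12 libraries (horizontal axis), as log2(CPM + 0.25) less the mean of the 3 normal brains. The normal brains at the right are lowest for most genes, PDGFA tumour 1 is the palest of the tumours, and Adar and Stat2 are lower in most tumours.

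Interferon response genes were higher in tumours than in normal brain over most of the list, typically by a little over 2-fold. With the 3 tumour groups weighted equally, 14 of the 41 tested members rose and 0 fell, at an edgeR quasi-likelihood p adjusted over all 17812 genes of under 0.05. Over all genes tested, 5.22% were called in either direction, 3.71% higher and 1.5% lower. The log2 fold change was above 0 for 38 of the 41 members, with a median of 1.21, against -0.01 over all genes. The 14 were the GTPases Irgm1, Iigp1, Gbp2, Gbp3 and Igtp, the RNA sensor Ddx58, Oasl2, Ifit2, Ifitm3, Trim25, Parp9, the secreted Lgals3bp, Rtp4 and Ifi27. At an unadjusted p under 0.05 the members numbered 31 of 41, against 23.6% of all genes. In 17 of the 41 members all 9 tumours lay above all 3 normal brains, which held for 4.67% of all genes. Leaving out any 1 normal brain, or counting the similar normal brains 1 and 2 as 1 sample, left 0 members called and 0 to 3 genes called of all those tested, although at least 39 of 43 tested members then kept a log2 fold change above 0 and the median stayed between 1.12 and 1.29. With normal brains 1 and 2 counted as 1 sample and both IDH1_R132H tumour 3 and PDGFA tumour 1 left out, 14 of 43 members were called, 13 of them among the 14 named, beside 5.76% of all genes. Without PDGFA tumour 1 alone, 25 members and 13.5% of all genes were called, and without IDH1_R132H tumour 2, 8 members and 1.95% of all genes.

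**Figure D2:**
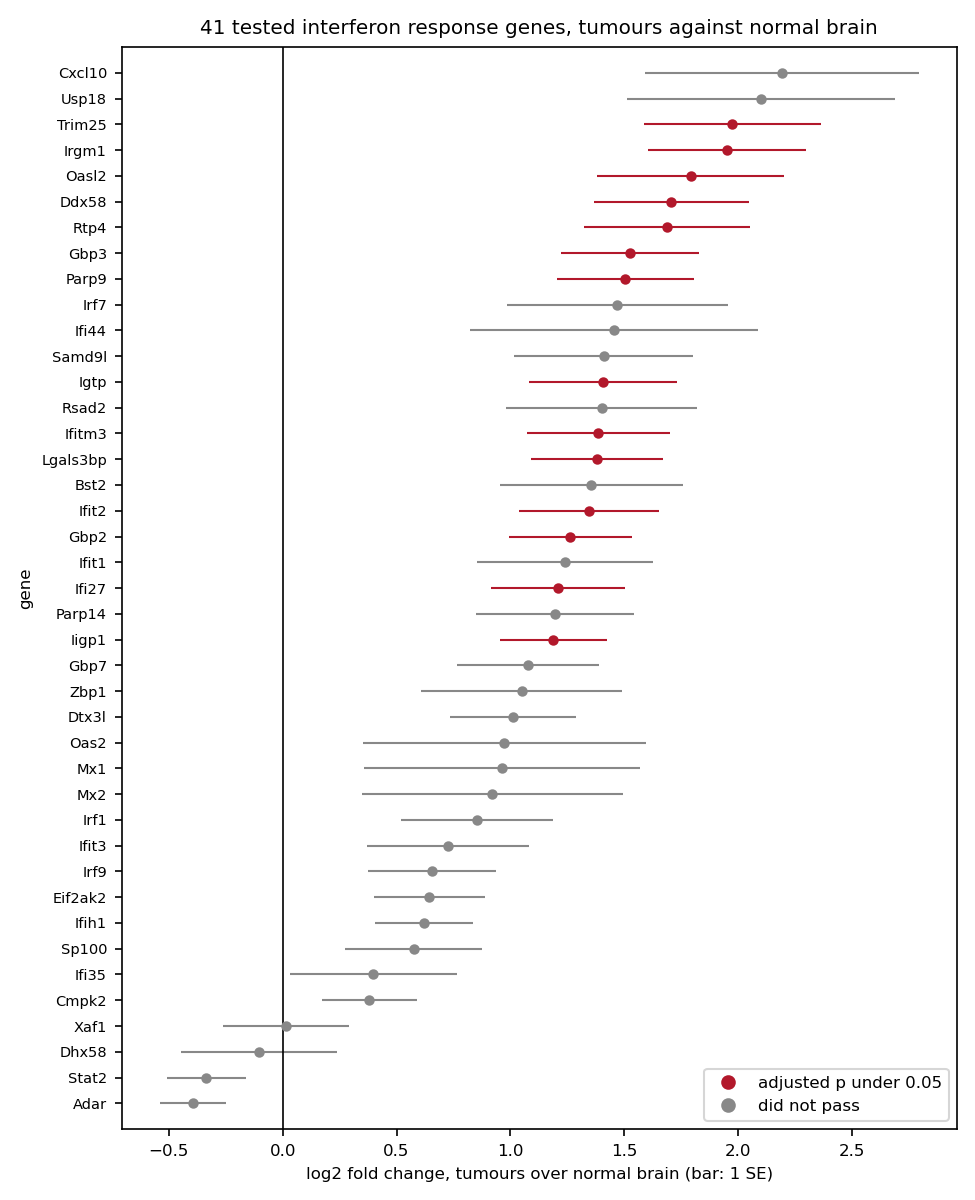
Log2 fold change of each of the 41 tested members, all tumours against normal brain (horizontal axis), members ordered by fold change. Bars show the SE to either side and are not 95% intervals. Red points passed an edgeR adjusted p of 0.05 and grey points did not, and 38 of the 41 points lie right of 0.

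The listed interferon genes were close to undetected. The list covers type I, II and III interferons, with only Ifna1, Ifna2, Ifna4 and Ifna5 taken from the Ifna family. How reads shared by close copies were counted is not given. The 11 ligand genes of the list had 37 reads in all over the 12 libraries, and none had enough to be tested. Of these reads, 15 were in IDH1WT tumour 2 and 10 in IDH1_R132H tumour 1. Ifng, the gene of interferon gamma, had 9 reads in tumours, at most 4 in any 1, and 1 read in normal brains. The libraries with most ligand reads also had the most reads over 1092 olfactory receptor genes, which brain tissue should hardly express: summed, these stood at 480.1, 152 and 148 CPM in IDH1_R132H tumours, 157, 812 and 109 in IDH1WT tumours, 31.3, 28.9 and 99.3 in PDGFA tumours, and 231, 219 and 50.6 CPM in normal brains. Normal brains 1 and 2 thus exceeded 7 of the tumours on this measure. Ligand reads this few cannot be set apart from such low background, whose part in the members' levels was not tested; without IDH1_R132H tumour 1 and IDH1WT tumour 2, 9 members remained called in tumours against normal brain, beside 2.47% of all genes.

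Receptors, kinases and inhibitors of the pathway gave no call. Of 16 such genes, all tested, 0 passed, beside 5.22% of all genes, with a median log2 fold change of 0.22. With so few genes, 0 calls do not set the list apart from that share. An unadjusted p under 0.05 in edgeR was found for 6 of them, beside 23.6% of all genes. The smallest p-values were those of Ptpn6, a phosphatase of blood-derived cells and microglia, at 1.24 ± 0.38 (SE) with an edgeR adjusted p of 0.075, and of Ifnar2, a chain of the type I receptor, at 0.73 ± 0.24 (SE) with an adjusted p of 0.090, both values being log2 fold changes. Of 20 genes that sense nucleic acid or carry that signal, 19 were tested and 2 rose, beside 3.71% of all genes called higher, with a median of 0.62. Irf8, a transcription factor of microglia and other myeloid cells, was at 14.7, 21.5 and 13.2 CPM in IDH1_R132H tumours, 8.68, 18.4 and 13.1 in IDH1WT tumours, 5.70, 16.3 and 21.8 in PDGFA tumours, and 3.003, 3.51 and 4.99 CPM in normal brains. All tumours lay above all normal brains, with a log2 fold change of 1.93 ± 0.40 (SE) and an edgeR adjusted p of 0.022. Myd88, the adaptor of most Toll-like receptors, was at 4.36, 3.87 and 4.93 CPM in IDH1_R132H tumours, 5.23, 4.88 and 4.05 in IDH1WT tumours, 2.35, 2.82 and 3.26 in PDGFA tumours, and 2.19, 1.76 and 2.45 CPM in normal brains. PDGFA tumour 1 fell within the range of the normal brains, and the change was 0.85 ± 0.23 (SE) with an edgeR adjusted p of 0.049.

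The 4 transcription factors of the response did not pass the test in any comparison. In tumours against normal brain 5.22% of all genes did, and 0 of 4 does not stand apart from that share. Among these factors, Stat2 and Irf9 are the partners in the complex that binds the ISRE. Irf7 amplifies type I interferon, and Irf1 responds to interferon gamma. Stat2 had 16.1, 15.4 and 13.0 CPM in IDH1_R132H tumours, 18.2, 18.8 and 25.2 in IDH1WT tumours, 26.3, 15.3 and 21.2 in PDGFA tumours, and 24.8, 25.4 and 20.3 CPM in normal brains. The IDH1_R132H tumours lay below all normal brains while the other tumours overlapped them, and the log2 fold change of tumours against normal brain was -0.34 ± 0.17 (SE), with an edgeR adjusted p of 0.26. Irf9 ranged over 8.05 to 18.9 CPM (median 13.5) in tumours, against 7.04 to 10.5 CPM in normal brains, with a log2 fold change of 0.66 and an adjusted p of 0.18 in edgeR. Irf7 lay at 0.861 to 3.66 CPM (median 2.26) in tumours, against 0.613 to 0.988 CPM in normal brains, with a log2 fold change of 1.47 and an adjusted p of 0.091. Irf1 lay at 4.14 to 12.4 CPM (median 6.49) in tumours, against 3.59 to 4.17 CPM in normal brains, with a log2 fold change of 0.85 and an adjusted p of 0.15. For Irf9, Irf7 and Irf1 the lowest tumour lay within the range of the normal brains, and it was PDGFA tumour 1 for Irf9 and Irf1 and IDH1WT tumour 1 for Irf7. Per kb of exon, where genes can be compared, Stat2 was the most abundant of the 4, at 3.18 CPM per kb of exon in tumours and 3.96 in normal brains.

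Among the 6 sensors of nucleic acid, 1 rose, beside 3.71% of all genes called higher. With so few genes, 1 call says little about sensors as a class. Ddx58, which encodes RIG-I and detects uncapped viral RNA, had 18.8, 16.4 and 13.2 CPM in IDH1_R132H tumours, 8.08, 19.5 and 14.5 in IDH1WT tumours, 6.15, 10.2 and 17.1 in PDGFA tumours, and 4.85, 3.73 and 3.94 CPM in normal brains. Every tumour lay above every normal brain, PDGFA tumour 1 least, and the log2 fold change was 1.71 ± 0.34 (SE) with an edgeR adjusted p of 0.021. Its relative Ifih1 (MDA5), which detects long double-stranded RNA, lay at 4.58 to 8.19 CPM (median 6.22) in tumours, against 2.98 to 5.05 CPM in normal brains, with a log2 fold change of 0.62 and an adjusted p of 0.11 in edgeR. Dhx58 (LGP2), their regulator, lay at 0.729 to 1.91 CPM (median 1.46) in tumours, against 1.32 to 1.73 CPM in normal brains, with a log2 fold change of -0.10 and an adjusted p of 0.89, and its sign turned without normal brain 1. Neither passed, and both overlapped the normal brains. For Ifih1, 8 of the 9 tumours were above all normal brains, and for Dhx58 3 of the 9. Eif2ak2 (PKR), which halts translation, lay at 6.26 to 17.9 CPM (median 11.4) in tumours, against 7.09 to 7.57 CPM in normal brains, with a log2 fold change of 0.64 and an adjusted p of 0.13. Zbp1, a sensor of Z-form nucleic acid that can trigger cell death, lay at 0.414 to 1.12 CPM (median 0.987) in tumours, against 0.350 to 0.462 CPM in normal brains, with a log2 fold change of 1.05 and an adjusted p of 0.17. For both, 8 of the 9 tumours were above all normal brains.

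Adar was 1 of the 3 members with a log2 fold change below 0, beside Stat2 and Dhx58. It encodes the enzyme that edits adenosine to inosine in double-stranded RNA, which keeps the cell's own RNA from being sensed, and the interferon-induced form is only one of its transcripts. Adar had 111, 115 and 118 CPM in IDH1_R132H tumours, 145, 91.1 and 140.5 in IDH1WT tumours, 176, 152 and 126 in PDGFA tumours, and 174, 169 and 168 CPM in normal brains. PDGFA tumour 1 was the highest of all 12 libraries and every other tumour lay below every normal brain. The log2 fold change was -0.39 ± 0.15 (SE) with an edgeR adjusted p of 0.13, so the difference did not pass. By limma voom with quality weights, Adar was called lower, as was 1 other member, Stat2. Adar was also the member with the highest level per length, at 16.1 CPM per kb of exon in tumours and 20.98 in normal brains, and it shares 7252 bases with Chrnb2 on the other strand, so without a stated strand setting some reads could belong to either gene.

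The oligoadenylate synthetase and synthetase-like genes are a family in which some products lead to activation of RNase L. Of these genes, 2 of 4 could be tested and 1 rose, beside 3.71% of all genes called higher. Oasl2, a synthetase-like gene, had 5.59, 6.41 and 5.33 CPM in IDH1_R132H tumours, 3.84, 9.9996 and 9.03 in IDH1WT tumours, 3.47, 8.46 and 5.80 in PDGFA tumours, and 2.77, 1.87 and 0.963 CPM in normal brains. The groups did not overlap, and the log2 fold change was 1.79 ± 0.41 (SE) with an edgeR adjusted p of 0.031. Oas2 ranged over 0.112 to 1.66 CPM (median 1.04) in tumours, against 0.263 to 0.768 CPM in normal brains, with a log2 fold change of 0.97 and an adjusted p of 0.37 in edgeR. Oas1a, which has close copies, had at most 4 reads in any library. Oasl1, which lies 11005 bases from Oasl2, had at most 11 reads in any tumour and at most 2 in any normal brain.

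Antiviral effectors were the largest group, and 2 of 10 rose, beside 3.71% of all genes called higher. Ifitm3, which blocks the fusion of viruses with endosomes, had 5.45, 7.53 and 13.0 CPM in IDH1_R132H tumours, 5.50, 7.80 and 8.66 in IDH1WT tumours, 4.81, 8.79 and 8.34 in PDGFA tumours, and 2.43, 2.85 and 3.50 CPM in normal brains. The lowest tumour, PDGFA tumour 1, was still above the highest normal brain, and the log2 fold change was 1.39 ± 0.31 (SE) with an edgeR adjusted p of 0.030. Ifit2, one of the tetratricopeptide proteins that bind viral RNA, had 31.9, 25.4 and 26.2 CPM in IDH1_R132H tumours, 19.7, 37.9 and 24.7 in IDH1WT tumours, 8.27, 21.2 and 26.3 in PDGFA tumours, and 8.78, 10.5 and 9.28 CPM in normal brains. PDGFA tumour 1 was the lowest of all 12 libraries and the other 8 tumours lay well above the normal brains, with a log2 fold change of 1.34 ± 0.31 (SE) and an edgeR adjusted p of 0.031. Samd9l, a restriction factor for poxviruses, had 18.4, 8.45 and 7.70 CPM in IDH1_R132H tumours, 7.09, 22.8 and 10.8 in IDH1WT tumours, 5.03, 5.80 and 7.61 in PDGFA tumours, and 2.77, 4.28 and 4.03 CPM in normal brains. Its tumours lay above its normal brains and it passed only in IDH1_R132H tumours against normal brain, with a log2 fold change of 1.64 ± 0.45 (SE) and an edgeR adjusted p of 0.048; its 2 highest libraries are those with the most olfactory receptor reads.

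All 10 effectors had a log2 fold change above 0, from 0.38 to 1.41, with a median of 1.29. Bst2 (tetherin), which holds budding virus at the membrane, ranged over 1.38 to 3.26 CPM (median 2.20) in tumours, against 0.462 to 1.31 CPM in normal brains, with a log2 fold change of 1.35 and an adjusted p of 0.066 in edgeR. Rsad2 (viperin), which makes a chain-ending nucleotide, lay at 1.86 to 6.63 CPM (median 2.76) in tumours, against 1.15 to 1.40 CPM in normal brains, with a log2 fold change of 1.40 and an adjusted p of 0.068. Ifit1, whose upstream sequence is printed above and which binds RNA lacking the host cap methylation, lay at 1.90 to 5.27 CPM (median 4.09) in tumours, against 1.49 to 1.54 CPM in normal brains, with a log2 fold change of 1.24 and an adjusted p of 0.077. In these 3 genes no tumour overlapped a normal brain, and all missed the threshold. Ifit3, which shares sequence with its near copy Ifit3b, lay at 1.57 to 5.93 CPM (median 3.91) in tumours, against 2.08 to 2.89 CPM in normal brains, with a log2 fold change of 0.73 and an adjusted p of 0.24. Cmpk2, a mitochondrial nucleotide kinase beside Rsad2, lay at 12.2 to 23.3 CPM (median 17.6) in tumours, against 10.9 to 15.2 CPM in normal brains, with a log2 fold change of 0.38 and an adjusted p of 0.29. Both overlapped the normal brains. The dynamin-like Mx1 lay at 0.224 to 1.91 CPM (median 0.789) in tumours, against 0.175 to 0.768 CPM in normal brains, with a log2 fold change of 0.96 and an adjusted p of 0.36, and Mx2 at 0.789 to 4.22 CPM (median 2.85) in tumours, against 0.613 to 1.87 CPM in normal brains, with a log2 fold change of 0.92 and an adjusted p of 0.36. Both were low and overlapped the normal brains.

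The ubiquitin-like and ADP-ribose system had 2 of 5 tested members called higher, beside 3.71% of all genes. Trim25, the ubiquitin ligase that helps RIG-I signal, had 39.1, 31.6 and 26.4 CPM in IDH1_R132H tumours, 19.3, 41.2 and 26.8 in IDH1WT tumours, 8.27, 15.5 and 33.0 in PDGFA tumours, and 7.74, 5.27 and 6.91 CPM in normal brains. The groups did not overlap, although PDGFA tumour 1 was only just above normal brain 1, and the log2 fold change was 1.97 ± 0.39 (SE) with an edgeR adjusted p of 0.019. Parp9, an ADP-ribosyltransferase that works as a dimer with the ubiquitin ligase Dtx3l, had 6.27, 8.04 and 6.51 CPM in IDH1_R132H tumours, 5.17, 7.68 and 8.19 in IDH1WT tumours, 3.91, 5.89 and 9.79 in PDGFA tumours, and 2.08, 2.85 and 2.28 CPM in normal brains. Its groups did not overlap either, with a log2 fold change of 1.503 ± 0.30 (SE) and an adjusted p of 0.021. Dtx3l had 15.4, 13.7 and 15.6 CPM in IDH1_R132H tumours, 11.1, 16.95 and 12.3 in IDH1WT tumours, 6.37, 9.20 and 17.9 in PDGFA tumours, and 5.77, 6.37 and 7.26 CPM in normal brains. PDGFA tumour 1 lay within the range of the normal brains, and Dtx3l passed only in IDH1_R132H tumours against normal brain, with a log2 fold change of 1.198 ± 0.33 (SE) and an edgeR adjusted p of 0.046. Parp9 and Dtx3l run away from each other on opposite strands of chromosome 16 and share 682 bases at their start ends. Usp18, which removes ISG15 from proteins and blocks the type I receptor, lay at 0.596 to 1.91 CPM (median 1.41) in tumours, against 0.175 to 0.462 CPM in normal brains. Its log2 fold change was the second largest of the list, 2.10 ± 0.59 (SE), but did not pass, with an edgeR adjusted p of 0.057. Parp14, another ADP-ribosyltransferase, lay at 3.24 to 12.1 CPM (median 10.1) in tumours, against 3.41 to 4.50 CPM in normal brains, with a log2 fold change of 1.19 and an adjusted p of 0.063. Isg15 itself, the ubiquitin-like modifier, had 0 to 11 reads per library.

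The interferon-inducible GTPases held the largest share of calls, 5 of 6 members, beside 3.71% of all genes called higher. Irgm1, an immunity-related GTPase of membranes and autophagy, had 26.2, 27.1 and 20.1 CPM in IDH1_R132H tumours, 14.8, 27.9 and 22.2 in IDH1WT tumours, 8.38, 15.6 and 23.9 in PDGFA tumours, and 3.003, 6.59 and 6.13 CPM in normal brains. Every tumour lay above every normal brain, with means of 20.7 ± 6.60 CPM in tumours (SD, n = 9), against 5.24 ± 1.95 CPM in normal brains (SD, n = 3). Its log2 fold change of 1.95 ± 0.35 (SE) had the smallest p of the list, with an edgeR adjusted p of 0.016. Igtp (Irgm3), of the same family, had 6.41, 6.82 and 6.32 CPM in IDH1_R132H tumours, 3.11, 6.46 and 4.89 in IDH1WT tumours, 4.25, 2.98 and 3.99 in PDGFA tumours, and 0.924, 1.87 and 2.63 CPM in normal brains. The tumours again lay above the normal brains, with a log2 fold change of 1.41 ± 0.32 (SE) and an adjusted p of 0.031; Igtp shares 7974 bases with Irgm2 on the same strand. Iigp1, an effector GTPase that loads onto parasite vacuoles, was low but even, at 4.22, 4.68 and 3.75 CPM in IDH1_R132H tumours, 2.25, 2.80 and 2.26 in IDH1WT tumours, 3.69, 3.48 and 2.99 in PDGFA tumours, and 1.39, 1.21 and 1.66 CPM in normal brains. No tumour overlapped a normal brain, and the log2 fold change was 1.19 ± 0.24 (SE) with an adjusted p of 0.021.

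Guanylate-binding proteins coat and break open pathogen membranes, and 3 of them were members. Gbp3 had 8.72, 7.63 and 6.51 CPM in IDH1_R132H tumours, 2.65, 6.22 and 7.25 in IDH1WT tumours, 7.49, 7.29 and 6.25 in PDGFA tumours, and 2.31, 2.63 and 1.93 CPM in normal brains. IDH1WT tumour 1 was barely above normal brain 2 and the other tumours were at least 6.22 CPM, with a log2 fold change of 1.52 ± 0.30 (SE) and an edgeR adjusted p of 0.021. Gbp2 had 4.50, 5.09 and 6.32 CPM in IDH1_R132H tumours, 3.78, 4.39 and 5.93 in IDH1WT tumours, 3.91, 4.14 and 5.17 in PDGFA tumours, and 1.27, 2.09 and 2.54 CPM in normal brains. Its groups did not overlap, with a log2 fold change of 1.26 ± 0.27 (SE) and an adjusted p of 0.025. Gbp7 had 14.99, 11.7 and 13.2 CPM in IDH1_R132H tumours, 7.22, 12.2 and 13.5 in IDH1WT tumours, 4.58, 6.63 and 13.3 in PDGFA tumours, and 5.43, 4.17 and 5.43 CPM in normal brains. PDGFA tumour 1 lay among the normal brains, and Gbp7 passed only in IDH1_R132H tumours against normal brain, with a log2 fold change of 1.40 ± 0.36 (SE) and an edgeR adjusted p of 0.039. The 3 genes are neighbours on chromosome 3, in the order Gbp7, Gbp3, Gbp2, with gaps of 9876 and 47392 bases.

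Of the secreted proteins, Lgals3bp, a glycoprotein that binds galectins, had 11.3, 17.4 and 12.04 CPM in IDH1_R132H tumours, 12.4, 8.05 and 10.6 in IDH1WT tumours, 6.93, 11.9 and 17.9 in PDGFA tumours, and 4.73, 3.84 and 5.25 CPM in normal brains. No tumour overlapped a normal brain, with a log2 fold change of 1.38 ± 0.29 (SE) and an edgeR adjusted p of 0.024. Cxcl10, the chemokine that draws T cells through CXCR3, lay at 0.335 to 1.97 CPM (median 1.098) in tumours, against 0.115 to 0.350 CPM in normal brains. Its log2 fold change was the largest of the list, 2.19 ± 0.60 (SE), and missed the threshold with an edgeR adjusted p of 0.055. Cxcl10 rests on 1, 2 and 4 reads in normal brains and 3 to 19 reads in tumours. It also shares 2252 bases with Art3 on the other strand, and the strand setting is not given. PDGFA tumour 1, at 0.34 CPM, was its only tumour not above all normal brains.

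The remaining members gave 2 calls of 6, both higher, beside 3.71% of all genes called higher. Rtp4, a receptor transporter protein that also restrains viruses, had 4.50, 3.05 and 3.75 CPM in IDH1_R132H tumours, 2.05, 4.27 and 2.63 in IDH1WT tumours, 1.45, 3.56 and 2.99 in PDGFA tumours, and 0.808, 0.988 and 1.05 CPM in normal brains. Its groups did not overlap, with a log2 fold change of 1.69 ± 0.36 (SE) and an edgeR adjusted p of 0.026. The span of Rtp4 shares 39791 bases with Gm45338 on the same strand and 525 with Masp1 on the other strand. How reads in such overlaps were assigned is not given. Ifi27, a small mitochondrial protein, had 27.5, 21.6 and 17.6 CPM in IDH1_R132H tumours, 18.0, 24.1 and 16.5 in IDH1WT tumours, 10.2, 8.95 and 21.9 in PDGFA tumours, and 5.54, 8.56 and 9.28 CPM in normal brains. PDGFA tumour 2 fell within the range of the normal brains and the other 8 tumours lay above it, with a log2 fold change of 1.21 ± 0.29 (SE) and an adjusted p of 0.038. Ifi44 lay at 0.395 to 3.66 CPM (median 1.45) in tumours, against 0.346 to 0.768 CPM in normal brains, with a log2 fold change of 1.45 and an adjusted p of 0.19, its highest libraries again being IDH1WT tumour 2 and IDH1_R132H tumour 1. Sp100, a nuclear body protein, lay at 1.93 to 4.09 CPM (median 3.18) in tumours, against 1.40 to 2.52 CPM in normal brains, with a log2 fold change of 0.58 and an adjusted p of 0.27, and Ifi35 at 1.34 to 1.98 CPM (median 1.77) in tumours, against 0.693 to 2.28 CPM in normal brains, with a log2 fold change of 0.40 and an adjusted p of 0.55. The Ifi35 value was 0.12, 0.14 and 1.19 with normal brain 1, 2 or 3 left out, and limma voom with quality weights called it higher. These 3 overlapped the normal brains. Xaf1, which promotes apoptosis, lay at 1.38 to 4.61 CPM (median 2.58) in tumours, against 1.93 to 2.96 CPM in normal brains, with a log2 fold change of 0.01 and an adjusted p of 0.98, and its sign turned under 8 of the alternatives tried.

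**Figure D3:**
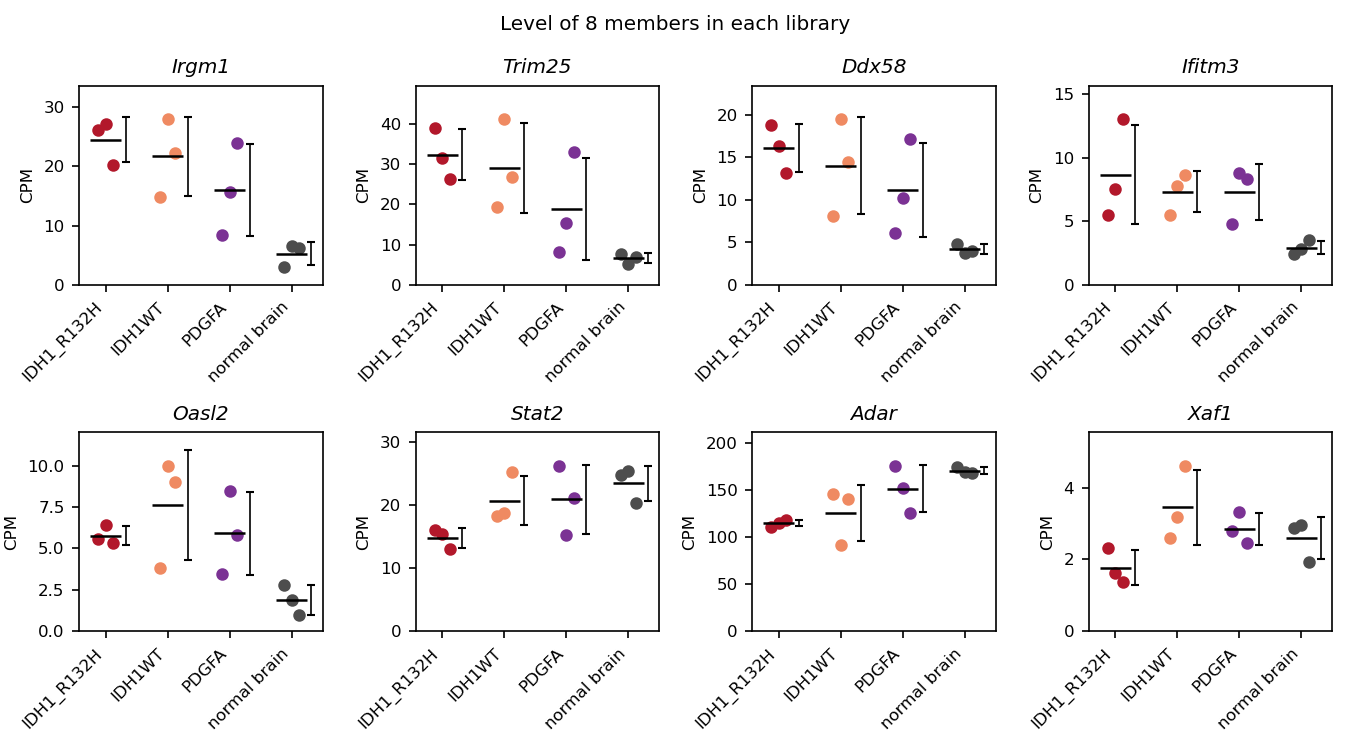
Level in CPM (vertical axis, from 0) of 8 members in the IDH1_R132H, IDH1WT and PDGFA tumours and the normal brains (horizontal axis). Points are libraries, lines group means and bars the SD over 3 libraries. Irgm1, Trim25, Ddx58, Ifitm3 and Oasl2 are higher in every tumour than in every normal brain, while Stat2, Adar and Xaf1 are not.

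Other interferon-induced genes, which are not members, were also mostly higher in tumours. Their list too was chosen with earlier results of these data known, so it is not an independent check. Of 54 listed, 34 could be tested. The log2 fold change was above 0 for 32 of these, beside 48.7% of all genes, with a median of 0.79. The test called 3 of them higher, beside 3.71% of all genes. Slfn9, a schlafen gene, had 12.9, 11.1 and 12.8 CPM in IDH1_R132H tumours, 5.63, 16.2 and 13.7 in IDH1WT tumours, 1.90, 6.88 and 21.7 in PDGFA tumours, and 0.808, 0.988 and 1.05 CPM in normal brains. All tumours lay above all normal brains, PDGFA tumour 1 by the least, with a log2 fold change of 3.56 ± 0.68 (SE) and an edgeR adjusted p of 0.018. Its relative Slfn5 rose by a log2 fold change of 0.71 ± 0.19 (SE) with an adjusted p of 0.048. Irgm2 rose by 1.161 ± 0.27 (SE) with an adjusted p of 0.033. It shares 7974 bases on the same strand with the called member Igtp, so the calls of these genes may not be separate.

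Levels per kb of exon show where the members stand in these tissues. After Adar, the highest were Ifi27, at 12.6 CPM per kb of exon in tumours and 5.31 in normal brains, Ifitm3, at 11.5 CPM per kb of exon in tumours and 4.32 in normal brains, and Ifit2, at 6.27 CPM per kb of exon in tumours and 2.43 in normal brains. Trim25 followed at 4.66 CPM per kb of exon in tumours and 1.15 in normal brains and Lgals3bp at 4.24 CPM per kb of exon in tumours and 1.62 in normal brains. Among the lowest stood Zbp1, at 0.249 CPM per kb of exon in tumours and 0.118 in normal brains, and Mx1, at 0.246 CPM per kb of exon in tumours and 0.124 in normal brains. The level of Mx1 rests on 2 to 14 reads per library.

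Across libraries, members moved with the sample as well as with the group. Averaged over the tested members, log2 CPM was 2.77, 2.54 and 2.36 for IDH1_R132H tumours, 2.11, 2.80 and 2.69 for IDH1WT tumours, 1.88, 2.46 and 2.61 for PDGFA tumours and 1.42, 1.58 and 1.48 for normal brains. Every tumour was above every normal brain on this mean, with IDH1WT tumour 2 and IDH1_R132H tumour 1 highest and PDGFA tumour 1 lowest of the tumours. PDGFA tumour 1 was the lowest tumour for 22 of the 41 members. Taken one tumour at a time, the members above all 3 normal brains numbered 37, 33 and 32 of 41 in IDH1_R132H tumours, where 36.4%, 36.5% and 36.2% of all genes were. They numbered 31, 37 and 36 in IDH1WT tumours, where 30.6%, 38.4% and 35.5% of all genes were. In PDGFA tumours they numbered 25, 34 and 34, where 30.8%, 31.9% and 37.9% of all genes were. PDGFA tumour 1 had the fewest. In PDGFA tumour 1 the GTPases Gbp3, Iigp1 and Igtp were at 7.49, 3.69 and 4.25 CPM, above the other PDGFA tumours, while Ifit2, Gbp7 and Dtx3l were no higher there than in normal brains. Leaving out that library, 25 of 41 members had all 8 other tumours above all normal brains, against 10.5% of all genes.

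Cell type markers were read beside these levels, and their part in the members' change was not tested. The summed level of 14 microglia and macrophage markers was 259, 475 and 451 CPM in IDH1_R132H tumours, 318, 219.6 and 355 in IDH1WT tumours, 46.7, 325 and 399 in PDGFA tumours, and 140.0, 151 and 239 CPM in normal brains. PDGFA tumour 1 had the lowest of all 12. IDH1WT tumour 2, with the highest member mean and the most olfactory receptor reads, lay above normal brains 1 and 2 and below normal brain 3. By edgeR 0 of the 14 markers passed in tumours against normal brain, where 5.22% of all genes did. The log2 fold change was above 0 for 13 of the 14, with a median of 0.83. Endothelial markers summed to 234 to 358 CPM in tumours and 190 to 211 CPM in normal brains, and 5 of 10 rose. The 10 T and NK cell markers summed to 2.65 to 21.5 CPM in tumours and 2.28 to 7.16 CPM in normal brains, the highest in PDGFA tumour 1, where Cd4 alone gave 21.1 CPM and Cd3e, Cd3g and Cd3d were at 0. Of 6 plasmacytoid dendritic cell markers, which include the member Bst2 and the microglial gene Siglech, 5 were tested and 0 passed, with a median of 0.15. Astrocyte markers had a median of -0.14, with 1 of 8 higher, neuronal markers -0.39, with 0 of 9 called, and choroid plexus markers -0.80, with 0 of 5 called, while 6 of 7 oligodendrocyte precursor markers were higher.

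**Figure D4:**
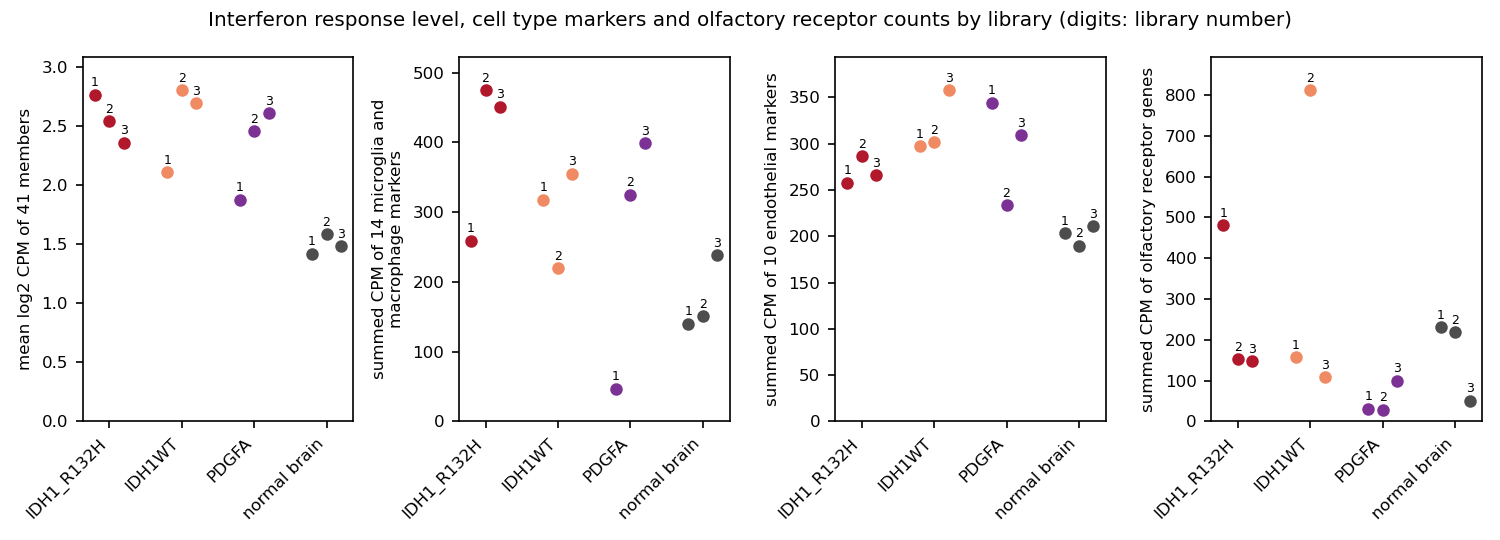
Values for each of the 12 libraries (horizontal axis, tumour groups left of normal brain): mean log2 CPM of the members, summed CPM of the microglia and macrophage markers, of the endothelial markers and of olfactory receptor genes (vertical axes, from 0). The member mean is above the normal brains in all 9 tumours, the microglial sum is lowest in PDGFA tumour 1, and olfactory receptor reads are highest in IDH1WT tumour 2 and IDH1_R132H tumour 1.

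Each tumour group was also set against normal brain alone. These 3 comparisons share the same normal brains, so their counts are not independent. In IDH1_R132H tumours, 16 of 41 members rose, against 7.17% of all genes called (4.83% higher, 2.35% lower), with 37 of 41 log2 fold changes above 0 and a median of 1.32. Called were the 14 genes named for all tumours except Oasl2, and in addition Samd9l, Dtx3l and Gbp7. The change was 2.22 ± 0.39 (SE) for Irgm1, 2.29 ± 0.44 (SE) for Trim25, 1.82 ± 0.38 (SE) for Igtp and 1.56 ± 0.28 (SE) for Iigp1, with edgeR adjusted p-values of 0.016, 0.018, 0.020 and 0.015. All 6 GTPases were called in this comparison. Leaving out IDH1_R132H tumour 2 or any normal brain left 0 members and at most 1 gene called of all those tested, and leaving out IDH1_R132H tumour 1 left 10 members and 3.49% of all genes. All 3 mutant tumours lay above all normal brains for 29 of 41 members, against 19.4% of all genes.

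In IDH1WT tumours, 5 of 41 members rose: Irgm1, Trim25, Ddx58, Parp9 and Oasl2, against 1.72% of all genes called (1.57% higher, 0.152% lower). Their log2 fold changes were 2.03 ± 0.39 (SE), 2.12 ± 0.43 (SE), 1.74 ± 0.39 (SE), 1.53 ± 0.34 (SE) and 2.03 ± 0.46 (SE), with edgeR adjusted p-values from 0.028 to 0.048. The median over the members was 1.22, 30 of 41 had an unadjusted p under 0.05, and 30 lay above all normal brains in all 3 tumours, against 17.4% of all genes. The count was 0, with at most 1 gene called of all those tested, without IDH1WT tumour 2 or 3 or any normal brain. It was 11 without IDH1WT tumour 1, beside 3.65% of all genes, and 1, 1 and 3 without IDH1_R132H tumours 1, 2 and 3, beside 0.885%, 0.744% and 1.74%. It was 14, 2 and 13 without PDGFA tumours 1, 2 and 3, beside 1090, 218 and 1006 genes called in all (307 with every library in), and these libraries enter the comparison only through the shared fit.

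In PDGFA tumours, edgeR called 0 of 41 members, against 0.303% of all genes (0.258% higher, 0.0449% lower), while 22 had an unadjusted p under 0.05 (10.6% of all genes did) and DESeq2 called 10 members and 2.72% of all genes. The median log2 fold change was 1.01 and 39 of 41 were above 0. Gbp3 came closest, at 1.61 ± 0.35 (SE) with an edgeR adjusted p of 0.074, then Iigp1 at 1.24 ± 0.27 (SE) with an adjusted p of 0.081. Without PDGFA tumour 1, 13 members and 4.4% of all genes were called, and without IDH1WT tumour 1, 1 member and 0.324% of all genes. All 3 PDGFA tumours lay above all normal brains for 19 of 41 members, against 8.23% of all genes.

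Between tumour groups, no member passed the test. For IDH1_R132H against IDH1WT tumours, the comparison of the mutant with the unmutated enzyme, edgeR called 0 members and 0% of all genes, 3 members had an unadjusted p under 0.05 (2.67% of all genes did) and DESeq2 called 0. The median log2 difference was 0.04, with 23 of 41 above 0, and single libraries turned it: it was -0.07 with 19 of 43 above 0 without IDH1_R132H tumour 1, and -0.18 with 13 of 43 above 0 without IDH1WT tumour 1. It was 0.24 with 30 of 41 above 0 without IDH1WT tumour 2, 0.13 without IDH1WT tumour 3, 0.07 without IDH1_R132H tumour 3, and 0.005 without IDH1_R132H tumour 2. The 3 with an unadjusted p under 0.05 were Iigp1, higher in the mutant by 0.80 ± 0.26 (SE) with an unadjusted p of 0.0094 in edgeR, Xaf1, at -0.94 ± 0.34 (SE) with an unadjusted p of 0.017, and Stat2, at -0.48 ± 0.22 (SE) with an unadjusted p of 0.047; the adjusted p was 0.9996 for each. For Iigp1 the 3 mutant tumours, at 4.22, 4.68 and 3.75 CPM, did lie above the 3 IDH1WT tumours, at 2.25, 2.80 and 2.26 CPM. The 95% interval of the difference lay within a 2-fold change either way for 17 of the 41 members, so a 2-fold difference is not bounded for the other members.

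IDH1_R132H against PDGFA tumours gave 0 members and 0% of all genes, 2 members at an unadjusted p under 0.05 (10.9% of all genes) and a median of 0.24. Without PDGFA tumour 1 the median was 0.02, with 23 of 43 above 0, and without PDGFA tumour 3 the members with an unadjusted p under 0.05 numbered 12. The 2 members were Igtp, at 0.80 ± 0.35 (SE), and Stat2, at -0.49 ± 0.22 (SE), with edgeR adjusted p-values of 0.44 and 0.44. IDH1WT against PDGFA tumours gave 0 members and 0% of all genes as well, 1 member unadjusted (5.83% of all genes), Samd9l at 1.12 ± 0.43 (SE) with an adjusted p of 0.81, and a median of 0.24. This median was 0.07 without IDH1WT tumour 2, 0.10 without IDH1WT tumour 3 and 0.09 without PDGFA tumour 1, and without PDGFA tumour 3 the unadjusted members numbered 8. DESeq2 called 0 members in both. The intervals lay within 2-fold for 14 and 15 of the 41 members. An effect that passed against normal brain in one tumour group and not in another is therefore not shown to differ between them.

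Calls can be set beside the promoter letters. Of the 10 members called in tumours against normal brain that have a promoter window, 6 held the ISRE core, and of the other 23 members with a window, 11 did (47.8%). GAS was present in 3 of the 10 and 7 of the 23. Trim25, Oasl2, Ifit2 and Lgals3bp were called with no ISRE core in the window, while Cxcl10, Ifit3, Rsad2 and Stat2 have it and did not pass. Several members lie side by side: Ifit2, Ifit3 and Ifit1 on chromosome 19, Parp14, Dtx3l and Parp9 on chromosome 16, and Mx1 and Mx2 on the same chromosome. On GRCm38 in GENCODE M21, Irgm1 lies at chromosome 11, 48861968 to 48871683, minus strand, Igtp at chromosome 11, 58199556 to 58207591, plus strand, Trim25 at chromosome 11, 88999376 to 89020293, plus strand and Lgals3bp at chromosome 11, 118392751 to 118402092, minus strand. Ddx58 lies at chromosome 4, 40203773 to 40239828, minus strand, Oasl2 at chromosome 5, 114896936 to 114912234, plus strand, Parp9 at chromosome 16, 35938470 to 35972605, plus strand and Rtp4 at chromosome 16, 23520291 to 23614222, plus strand. Gbp3 lies at chromosome 3, 142560026 to 142573209, plus strand, Gbp2 at chromosome 3, 142620602 to 142638008, plus strand, Ifit2 at chromosome 19, 34550694 to 34576419, plus strand, Ifitm3 at chromosome 7, 141009586 to 141010770, minus strand and Ifi27 at chromosome 12, 103434211 to 103440239, plus strand. The RefSeq starts used for the promoter windows can differ from the ends of these spans. The 250 bases printed for Irgm1 lie within its GENCODE span, and those for Gbp2 and Gbp3 do in part.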

How the data were processed

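The authors deposited raw read counts per Ensembl gene, and a second table on a log2 scale that its name gives as regularized log (rlog) values. The submitters' processing notes name GRCm38 as the build and, as tools, featureCounts 1.5.1 of Subread, DESeq2 1.16.1 and STAR 2.5.2b. No source used here gives their annotation, strand setting or rule for multiply mapped reads, so overlapping genes and close copies are uncertain. Symbols and coordinates came from GENCODE M21. Genes were kept by filterByExpr (minimum count 10, minimum total 15). Counts were tested in edgeR 4.0.16 (R 4.3.3) by quasi-likelihood with TMM factors, 1 coefficient per group over all 12 libraries and 8 residual degrees of freedom, in 7 comparisons. Calls have a Benjamini-Hochberg adjusted p under 0.05 over all genes tested. SE is the log2 fold change divided by the square root of F, and intervals are 95%. The common biological coefficient of variation was 26.5%, being 29.6% within tumours and 13.8% within normal brains. Tested on simulated data for tumours against normal brain, the fit recovered 52.2% of 2-fold and 98.5% of 4-fold changes, with 8 false calls over 17477 genes. For IDH1_R132H against IDH1WT it recovered 31.3% and 74.6%, with 5 false calls over 17493 genes. The simulated libraries were all separate samples, with 1 dispersion per gene for all groups. The likeness of normal brains 1 and 2 and the wider spread within tumours were not simulated, so the recovery in these data can be lower. Alternatives were DESeq2 1.42.0, limma 3.58.1, RLE factors, no filter, the rlog values, ribosomal gene models left out, and libraries left out or summed. Libraries are numbered in the order of their records. Members and lists were chosen with earlier results of these data known. Values in every library are given for members called in any comparison and for the member with most reads of each role, and of each pathway list the called genes are named, or otherwise the 2 with the smallest p.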

Additional observations from a re-analysis of the deposited data

How the results depend on the processing

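For tumours against normal brain, 14 members were called, beside 5.22% of all genes. This became 24 with DESeq2 (11.7% of all genes), 33 with limma voom and quality weights (31 higher, 2 lower; 33.7%), 24 with no filter (5.19%), 27 without IDH1_R132H tumour 3 and PDGFA tumour 1, which stand apart (15.7%), 0 with normal brains 1 and 2 summed (0%), 14 with both of these changes (5.76%), and 9 without the 2 libraries with most olfactory receptor reads (2.47%). The summing, alone or combined, and the last setting were chosen after seeing the data. Leaving out 1 library gave 0 to 25. IDH1_R132H against normal brain had 16, all higher (7.17% of all genes). This became 20 with DESeq2 (19 higher, 1 lower, 13.7%) and 31 with voom (29 higher, 2 lower, 41.2%). It was 24 with only its own groups in the fit (22 higher, 2 lower, 20.3%). With the summed normal brains it was 0 (0%), and 12 with the summing and the 2 libraries left out (4.63%). The count ranged over 0 to 21 with 1 library left out, at most 1 of them lower. IDH1WT against normal brain had 5 (1.72%), which became 18 with DESeq2 (7.14%), 26 with voom (25 higher, 1 lower, 16.7%), 17 with no filter (3.66%), 14 with only its own groups in the fit (8.53%), 1 on the rlog values (0.726%), 15 without the 2 libraries that stand apart (6.96%), 0 with the summed normal brains (0%), 6 with both (1.7%), 0 without the 2 olfactory-rich libraries (0%), and 0 to 14 with 1 library left out. PDGFA against normal brain had 0 (0.303%), which became 10 with DESeq2 (2.72%), 14 with voom (2.46%), 12 with no filter (2.25%), 13 without the 2 libraries that stand apart (5.19%), 4 with those left out and the normal brains summed (1.54%), and 0 to 13 with 1 library left out. The 3 comparisons between tumour groups had 0 called under every alternative run. RLE factors, ribosomal gene models left out and robust dispersion off left each of the 7 counts within 1.5 times. In tumours against normal brain, of 943 member fold changes under alternatives, 788 kept their sign and side of the threshold, 74 newly passed, 72 no longer passed and 9 turned sign. The reversals in that comparison were Dhx58, which ran over -0.23 to 0.012 with 1 library left out and was above 0 only without normal brain 1, and Xaf1, at -0.043 with voom, -0.011 with no filter, -2.17e-05 with ribosomal models left out, -0.041 without the olfactory-rich libraries and -0.17 to 0.12 with 1 library left out, below 0 without IDH1_R132H tumour 1, IDH1WT tumour 3, PDGFA tumour 2 or normal brain 3. With 1 normal brain left out, Mx1 ran over 0.53 to 1.51, and the lowest values were 0.56 for Mx2, 0.61 for Oas2 and 0.34 for Sp100. Signs of single members were not followed in the other comparisons; in IDH1_R132H against IDH1WT the members above 0 numbered 13 to 32 with 1 library left out. The cause of these changes was not tested, except that fits without a normal brain have fewer samples. Only the groups compared is no separate setting for tumours against normal brain, which uses every group. No paired analysis was possible because the labels give no replicate numbers shared between groups. With 2115 to 5994 member reads a library, members under about 2 CPM rest on few reads.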
